A study of Mus musculus with 3 samples.

Results

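The neurons described here are the excitatory and inhibitory interneurons of the lumbar spinal cord of 6 wild-type (WT) mice, compared with each other within 3 levels of the cord. The members are nuclei that the authors had typed as neurons and then assigned to a sub-type, named by level (D for dorsal, M for mid, V for ventral) and by class (E for excitatory, I for inhibitory). The rule gave 4698 nuclei, of 5724 neuronal and 8841 WT nuclei and of 14662 nuclei in the whole series. Of these, 3002 were excitatory (2004 DE, 120 ME and 878 VE) and 1696 inhibitory (1006 DI, 372 MI and 318 VI).

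The series profiled single nuclei (snRNA-seq) of frozen lumbar cord from 12 mice aged 90 days, and each of the 3 droplet pools, named A, B and C, held nuclei of 1 female WT, 1 male WT, 1 female SOD1G93A and 1 male SOD1G93A mouse that were told apart by hashtag antibodies. WT mice are C57BL/6J littermates that do not carry the transgene. SOD1G93A mice have many copies of a transgene for human SOD1 bearing a mutation found in familial amyotrophic lateral sclerosis, and they serve here only to ask whether the class differences recur. The counts are unique molecular identifiers (UMIs), each standing for 1 captured RNA molecule, and the WT members hold 73180902 of them.

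Interneurons of the spinal cord process touch, itch, pain and temperature dorsally and shape motor output ventrally. Excitatory interneurons load glutamate into vesicles with VGLUT2 and derive mostly from Lmx1b and Tlx3 lineages dorsally, while inhibitory interneurons use GABA, glycine or both and derive largely from Pax2 lineages. GABA is made by the glutamate decarboxylases and packed, as glycine is, by the vesicular inhibitory amino acid transporter VGAT, whereas GlyT2 takes glycine back into the terminal.

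The promoters of the 5 genes that carry these transmitter identities are shown because their transcripts separated the classes. Each window is the first listed for its gene (of 2 for Slc17a6 and Slc6a5) and runs from 250 bases before to 50 bases after the start of the gene in RefSeq on GRCm38.p6, plus strand, and E-boxes (CANNTG, which reads the same on both strands and is bound by basic helix-loop-helix factors) are in capitals. The windows are chr7:51621580-51621879 for Slc17a6 (VGLUT2), chr2:70561879-70562178 for Gad1, chr2:22622077-22622376 for Gad2, chr2:158610508-158610807 for Slc32a1 (VGAT) and chr7:49910049-49910348 for Slc6a5 (GlyT2).
Slc17a6: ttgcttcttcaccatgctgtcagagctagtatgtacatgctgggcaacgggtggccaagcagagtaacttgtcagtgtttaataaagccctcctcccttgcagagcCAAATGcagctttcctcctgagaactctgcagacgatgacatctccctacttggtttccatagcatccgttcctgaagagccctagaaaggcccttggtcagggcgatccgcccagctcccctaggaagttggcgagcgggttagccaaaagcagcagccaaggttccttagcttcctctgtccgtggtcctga
Gad1: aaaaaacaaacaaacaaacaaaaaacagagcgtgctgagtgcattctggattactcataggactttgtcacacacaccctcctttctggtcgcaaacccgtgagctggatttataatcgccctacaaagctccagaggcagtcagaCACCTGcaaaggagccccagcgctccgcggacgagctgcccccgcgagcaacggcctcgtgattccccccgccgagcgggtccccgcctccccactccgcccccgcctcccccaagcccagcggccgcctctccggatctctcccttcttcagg
Gad2: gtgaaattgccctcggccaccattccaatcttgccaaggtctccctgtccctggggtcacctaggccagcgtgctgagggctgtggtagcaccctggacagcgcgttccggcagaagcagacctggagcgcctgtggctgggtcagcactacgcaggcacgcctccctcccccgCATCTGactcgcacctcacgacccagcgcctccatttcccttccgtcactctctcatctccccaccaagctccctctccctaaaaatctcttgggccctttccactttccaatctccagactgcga
Slc32a1: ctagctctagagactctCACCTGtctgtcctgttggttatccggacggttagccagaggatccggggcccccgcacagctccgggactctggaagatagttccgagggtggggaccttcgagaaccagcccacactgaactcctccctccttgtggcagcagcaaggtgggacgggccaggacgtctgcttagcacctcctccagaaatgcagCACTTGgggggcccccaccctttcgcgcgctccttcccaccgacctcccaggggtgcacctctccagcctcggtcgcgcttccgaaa
Slc6a5: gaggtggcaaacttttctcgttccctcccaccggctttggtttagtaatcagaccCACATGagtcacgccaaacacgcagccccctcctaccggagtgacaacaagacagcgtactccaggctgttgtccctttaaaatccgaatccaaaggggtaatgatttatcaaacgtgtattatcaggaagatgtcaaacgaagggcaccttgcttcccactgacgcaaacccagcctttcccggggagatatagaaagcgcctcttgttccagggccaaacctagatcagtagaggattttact
Slc32a1 held 2 E-boxes and each of the other four held 1. Among all 32851 promoter windows of this length in the same table, 72.3% held at least 1 E-box and 39.6% at least 2, so E-boxes were common outside these genes too. The 5 windows had a GC content of 49.7% to 63.3%, beside a median of 52.7% over all windows. In the GENCODE annotation of the same build these genes span 7:51622006-51671119 (Slc17a6), 2:70553072-70602014 (Gad1), 2:22622205-22693874 (Gad2), 2:158610767-158615748 (Slc32a1) and 7:49910146-49963856 (Slc6a5).

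Nuclei and depth differed between the sub-types. Per mouse there were 179 to 579 DE, 99 to 258 DI, 12 to 30 ME, 30 to 103 MI, 66 to 247 VE and 21 to 95 VI nuclei. Their summed UMIs ran from 151601 to 483266 per mouse in ME and from 1970976 to 7097160 in DE, so the mid comparison rests on the fewest molecules. Of the barcodes, 3 among the members occurred in more than 1 pool. The score with which nuclei had been mapped to the reference atlas had a median per mouse of 0.929 to 0.957 in DE and 0.855 to 0.925 in DI. It was 0.551 to 0.709 in ME and 0.603 to 0.733 in MI, and only 0.471 to 0.515 in VE and 0.404 to 0.462 in VI. A score of at least 0.5 was reached by 1862 DE, 931 DI, 76 ME, 270 MI, 415 VE and 107 VI nuclei. The contrasts between levels were not refitted with these nuclei alone, so the part of label certainty in them was not tested. The reference populations behind a sub-type were also uneven: with at least 50 nuclei each, 16 populations made up DE and 9 DI, but 684 of the 878 VE nuclei came from the population VE_4, 314 of the 318 VI nuclei from VI_5 and all 120 ME nuclei from ME_1.

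Because the authors assigned sub-types from the RNA of the same nuclei, a false-discovery rate (FDR) between the classes describes how large and how regular a difference was over the 6 mice and is no independent test of the labels. The counts of each gene were summed per mouse and sub-type and compared within mice with limma (voom), and a gene was called at FDR < 0.1, the threshold of the study. Values are scaled UMIs of a gene per 1000000 UMIs of the genes that passed a filter on low counts at that level (CPM). Log2 fold changes are given as excitatory over inhibitory. Fewer genes passed at the mid level, so mid CPM are the more raised by this. Gad2 in the ME sum of the male of pool C was 43.2 CPM, but 39.6 per 1000000 of all UMIs. CPM of reference populations, glia and marker lists for other cells are per 1000000 of all UMIs.

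Transmitter genes were first compared with the labels by nucleus. The labels came from the same RNA, so a match was built in and is no check of them. Gad1 was detected in 62.3%, 44.1% and 30.8% of DI, MI and VI nuclei. Gad2 was detected in 61.3%, 69.1% and 42.1%, and Slc32a1 in 39.9%, 33.6% and 53.1%. Slc17a6 was detected in 66.1% of DE, 63.3% of ME and 68.9% of VE nuclei, against 9.74% of DI, 16.4% of MI and 21.7% of VI nuclei. Oligodendrocytes and astrocytes of the same mice, which should lack the transcript, had a Slc17a6 UMI in 13.0% and 13.4% of nuclei at median depths of 6262.5 and 5219 UMIs, while the sub-types had medians of 10070.5 (DE) to 23031 (VI). With every nucleus thinned to 3000 UMIs, which left out 33 DE, 7 DI, 1 ME, 2 MI, 3 VE, 1 VI, 156 oligodendrocyte and 146 astrocyte nuclei, the shares were 29.2%, 20.2% and 26.9% in DE, ME and VE. They were 3.30%, 5.95% and 4.73% in DI, MI and VI, beside 5.08% and 6.79% in the glial types. No inhibitory sub-type as a whole exceeded the higher glial share, and MI exceeded the lower. Thinning evens depth but not the share of RNA from outside the nucleus, so it cannot tell the source of these UMIs. The reference populations within MI differed: MI_3, with 51.9% of MI nuclei, held 86.2% of the Slc17a6 UMIs of MI and had 45.2 CPM, whereas MI_1 had 7.38 CPM. Oligodendrocytes had 23.0 and astrocytes 30.4 CPM.

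Among Gad1, Gad2, Slc32a1 and Slc6a5, only Slc6a5 was found after thinning in an excitatory sub-type above both glial shares. Without thinning, VE nuclei also exceeded both glial shares for Gad1 (11.7%), Gad2 (17.8%) and Slc32a1 (17.8%), and ME nuclei for Slc6a5 (13.3%). Slc6a5 was detected in 79.6% of VI nuclei and in 29.7% of VE nuclei. After thinning the shares were 36.6% and 11.7%, beside 5.46% of oligodendrocytes and 6.53% of astrocytes. In DE and ME the thinned shares were 3.25% and 2.52%. Nuclei with UMIs of both Slc17a6 and an inhibitory transmitter gene made up 16.8% of DE, 9.44% of DI, 17.5% of ME, 9.41% of MI, 21.0% of VE and 14.2% of VI nuclei. Pairs of nuclei from 1 mouse in 1 droplet were not marked by hashtags, and their part in these shares was not tested.

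Summed over nuclei, Slc17a6 in dorsal excitatory neurons was 118, 122 and 125 CPM in the lowest, median and highest mouse, against 6.04, 8.87 and 24.9 CPM in inhibitory neurons. The excitatory values were nearly the same in all 6 mice and did not overlap the inhibitory ones, whose highest value belonged to the female of pool A. The log2 fold change was 3.53 (SE 0.20, FDR = 1.52e-09). At the mid level excitatory neurons had 84.6, 92.8 and 128 CPM and inhibitory neurons 6.16, 20.1 and 46.4 CPM (1.79, SE 0.25, FDR = 0.000145). Ventrally they had 101, 109 and 122 CPM and 10.7, 24.1 and 34.2 CPM (2.08, SE 0.14, FDR = 2.3e-10). The groups stayed apart at each level, and the difference was larger dorsally than ventrally by 1.41 on the log2 scale (FDR = 0.0016) and than at the mid level by 1.73 (FDR = 0.0036). The other vesicular glutamate transporters were below the filter on low counts: Slc17a7 (VGLUT1) had 3 UMIs in all DE and 1 in all DI nuclei, and Slc17a8 (VGLUT3) had 69 and 9, of 23590727 and 13601003 UMIs in all. Of the 69, 46 UMIs were in the population DE_10, which made up 5.64% of DE nuclei and had 29.9 CPM of Slc17a8.

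Of the 7 genes of GABA and glycine synthesis, packaging and uptake, 6 were higher in inhibitory neurons dorsally, all 5 that could be tested at the mid level, and 5 ventrally. In all, 28.9% of the genes tested were called dorsally, 9.48% at the mid level and 9.78% ventrally. The list had a median log2 fold change of −2.65 at the mid level and −1.25 ventrally, where all genes tested had medians of 0.03 and −0.02.

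Gad1, which encodes GAD67, had 108, 116 and 143 CPM (lowest, median, highest mouse) in dorsal inhibitory neurons and 3.47, 6.21 and 10.8 CPM in excitatory ones (−4.16, SE 0.15, FDR = 1.56e-17). Ventrally it was far lower in inhibitory neurons, at 12.9, 19.6 and 22.1 CPM, against 5.80, 7.08 and 9.003 CPM (−1.45, SE 0.18, FDR = 3.59e-06). The classes did not overlap at either level, but the difference was smaller ventrally by 2.86 on the log2 scale. Ventral mapping scores were lower too, and their part in the smaller difference was not tested. Gad2 (GAD65) was lower ventrally in the same way, from a mean of 116 CPM in DI and 155 CPM in MI to 40.1 CPM in VI, with log2 fold changes of −3.64, −3.95 and −1.25.

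Unlike Gad1 and Gad2, the GlyT2 gene Slc6a5 had a higher mean in ventral than in dorsal inhibitory neurons. The inhibitory class alone was not tested between levels. Slc6a5 in inhibitory neurons had a mean of 84.1 ± 7.95 (SD, n = 6) CPM dorsally, 92.5 ± 18.7 CPM at the mid level and 155 ± 25.1 CPM ventrally. In VI the lowest mouse was at 121, the median at 166 and the highest at 176 CPM, while VE had 32.4, 39.4 and 48.7 CPM. The groups did not overlap (−1.94, SE 0.08, FDR = 2.14e-15), although Slc6a5 in VE lay well above the 10.7 CPM of DE. Slc32a1 was higher in inhibitory neurons both dorsally (39.5 against 9.34 CPM, −2.14) and ventrally (32.3 against 10.7 CPM, −1.63), and at the mid level it missed the filter with 184 UMIs in MI and 14 in ME.

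Abat, which degrades GABA, was modestly higher in inhibitory neurons at all levels (−0.65, −0.70 and −0.32), and Slc6a9 (GlyT1), the glycine transporter of glia, was called at neither level tested (0.07 and 0.14).

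**Figure D1:**
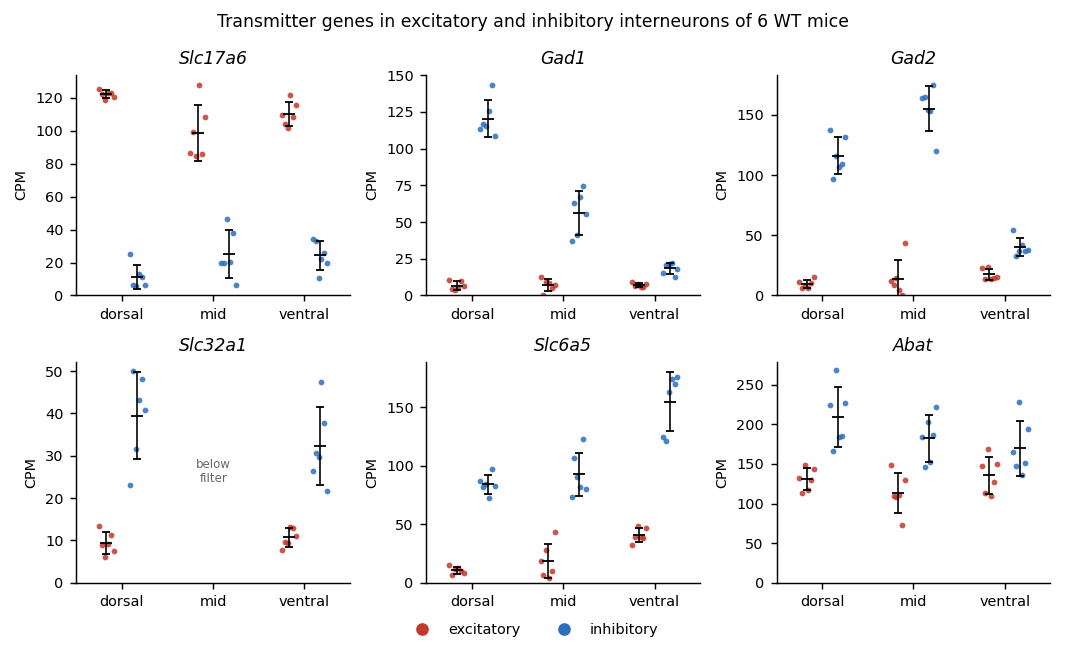
CPM of 6 transmitter genes in excitatory (red) and inhibitory (blue) interneurons at the 3 levels, with 1 point per WT mouse and the mean ± SD in black. The classes stand apart for Slc17a6 and Slc6a5 at each level, while Gad1 and Gad2 drop in ventral inhibitory neurons.

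A single mouse stood out at the mid level. The 12 to 30 ME nuclei per mouse leave few molecules, and in the male of pool C the ME sum had 43.2 CPM of Gad2, of Slc6a5 and of Pax2, where the median over mice was 10.6, 14.5 and 3.51 CPM. Without this mouse the mid log2 fold changes were −4.46 for Gad2, −2.84 for Slc6a5 and −4.90 for Pax2, all at least as large as with it (−3.95, −2.65 and −4.39). The classes of these genes did not overlap with it either.

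Dorsally 3331 of 11532 genes were called, 1606 (13.9%) higher in excitatory and 1725 (15.0%) higher in inhibitory neurons. Of 5443 mid genes, 516 were called, 301 (5.53%) and 215 (3.95%). Ventrally 1009 of 10318 were called, 481 (4.66%) and 528 (5.12%). A log2 fold change of at least 1 in either direction was reached by 367 and 274 of these genes dorsally, 72 and 64 at the mid level and 61 and 25 ventrally. The numbers of nuclei differ between levels, so that these counts cannot be compared as sizes of the class difference. With the nuclei of each mouse and class drawn down to the number of its mid class, 814 genes were called dorsally and 227 ventrally, and without the female or the male of pool B the ventral count was 556 or 569.

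A total of 5429 genes was tested at all 3 levels, of which 176 were called at each and 126 in a single direction, 72 higher in excitatory and 54 higher in inhibitory neurons. Only 6 and 8 of them reached a log2 fold change of 1 at every level. Between pairs of levels, 635 genes were called both dorsally and ventrally, 21.7% of the dorsal and 65.0% of the ventral calls among the genes tested at both, and 152 of the 635 had opposite directions. For dorsal and mid there were 397 (19.3% and 76.9%), 93 of them opposite, and for mid and ventral 215 (42.3% and 29.3%), 43 of them opposite.

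The genes that separated the classes everywhere included a pair of auxiliary subunits of calcium channels. Cacna2d1 encodes α2δ-1, the binding site of gabapentin, and was 22.5-fold higher in dorsal excitatory neurons, with 1544, 1792 and 2019 CPM in the lowest, median and highest mouse against 39.6, 80.4 and 124 CPM (4.49, SE 0.19, FDR = 1.2e-05). The log2 fold change was 2.34 at the mid level and 2.27 ventrally, and no mouse of either class crossed the other. In ventral inhibitory neurons the male of pool B was highest, at 181 CPM against a median of 89.7 CPM.

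Cacna2d3, a paralogue encoding α2δ-3, had the reverse pattern. Inhibitory neurons had 1775, 1302 and 1500 CPM on average at the dorsal, mid and ventral levels, and excitatory neurons 248, 402 and 677 CPM. All 6 mice were higher in the inhibitory class at each level (−2.83, −1.78 and −1.11), and the difference shrank ventrally by 1.72 on the log2 scale relative to the dorsal level. Nrxn3, a presynaptic neurexin, was likewise higher in inhibitory neurons, with 9797, 11338 and 9666 CPM against 2012, 4582 and 4778 CPM (−2.28, −1.34 and −1.01). Excitatory neurons of the mid and ventral levels had a higher mean of Nrxn3 than dorsal ones, while the inhibitory class stayed between 8056 and 13204 CPM in all mice and levels. Nxph1, a secreted ligand of α-neurexins, was also higher in inhibitory neurons, by −2.44, −3.06 and −0.91.

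Bdnf, the neurotrophin acting on TrkB, was found in excitatory neurons. Dorsally they had 25.4, 35.1 and 51.5 CPM and inhibitory neurons 1.86, 2.26 and 11.1 CPM (3.495, SE 0.31, FDR = 1.19e-08). The inhibitory sum of the female of pool A, which also had the highest dorsal inhibitory Slc17a6, was the highest, and the classes did not overlap. The mid and ventral log2 fold changes were 3.92 (67.2 against 4.89 CPM on average) and 2.10 (16.6 against 3.90 CPM). Tmem163, a zinc transporter of synaptic vesicles, differed by 4.19, 2.35 and 2.71, and Fam19a1, a secreted neurokine-like protein, by 4.05, 2.68 and 1.53. The long non-coding RNA D130009I18Rik (14:104612791-104966783) differed by 5.18, 3.67 and 2.16.

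On the inhibitory side the shared genes included the transcription factors Pax2 and Pax8. Pax2, which specifies the GABAergic fate, had 173, 216 and 245 CPM in dorsal inhibitory neurons and 2.97, 6.67 and 14.9 CPM in excitatory ones (−4.99, SE 0.24, FDR = 1.08e-07). Ventrally the values were 87.6, 110 and 123 CPM against 19.2, 25.4 and 46.6 CPM (−1.76, SE 0.11, FDR = 4.75e-09). All inhibitory values exceeded all excitatory ones at both levels, and the ventral difference was the smaller. Pax8 differed by −5.09, −3.79 and −2.13, and Lrtm1, which encodes a leucine-rich transmembrane protein, by −3.02, −1.53 and −1.18.

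**Figure D2:**
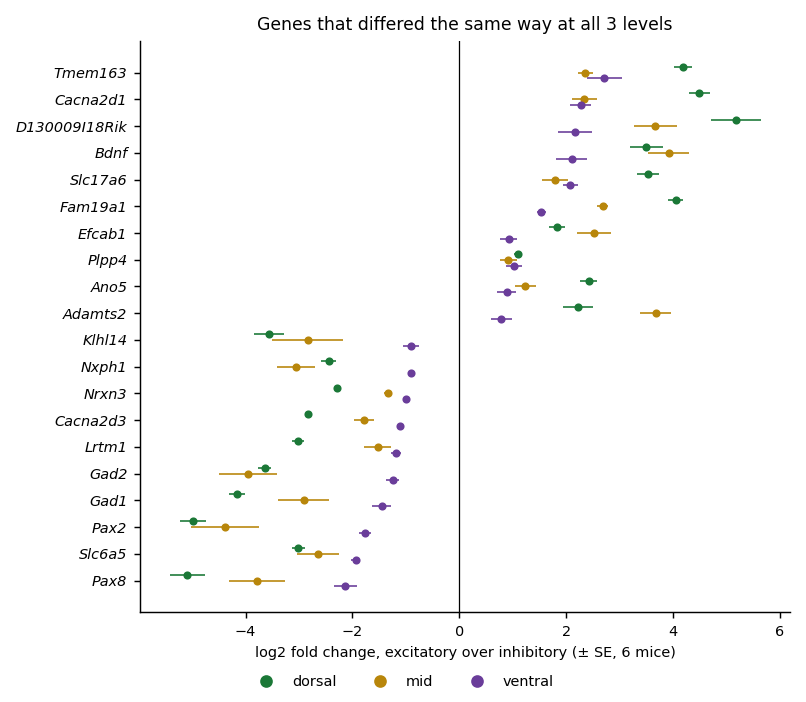
Log2 fold change (excitatory over inhibitory, ± SE, 6 mice) of the 20 genes called in 1 direction at all levels whose smallest fold change over the levels was largest, 10 in each direction. Most genes differed most in dorsal neurons (green), and the ventral values (purple) are nearer 0, as for Pax2 at −4.99, −4.39 and −1.76. Ventral nuclei also had the lowest mapping scores.

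Transcription factors of the spinal lineages were mostly too low to test at 90 days: 5 of 16 genes of the excitatory list and 6 of 17 of the inhibitory list passed the filter dorsally, several of them only through the class where they were high, so their numbers are no measure of the lists. The 5 excitatory-list genes had higher levels in DE, the smallest difference being that of Uncx (0.85). Lmx1b had 91.7, 123 and 147 CPM in DE and 0.654, 2.59 and 3.26 CPM in DI, with wide separation in all mice (5.67, SE 0.26, FDR = 1.16e-17). Prrxl1, also called Drg11, differed by 4.64 and Tlx3 by 3.24. Pou4f1, which encodes BRN3A, had 275 UMIs in DE and 3 in DI. Mid-level Lmx1b was higher in excitatory neurons as well (46.7 against 3.195 CPM, 3.79). Ventrally it missed the filter with 140 UMIs in VE and 13 in VI, of 20566728 and 8491296 UMIs in all.

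Of the 6 inhibitory-list genes, 5 were higher in DI and 1 was higher in DE, where 28.9% of all genes tested were called. Gbx1 had 42.4 against 2.53 CPM (−4.02) and Lhx5 17.7 against 0.669 CPM (−4.60). Foxp2, a marker of V1 inhibitory neurons, was the member that was more abundant in ventral cord: VI had 203 CPM and VE 69.5 CPM on average (−1.43, FDR = 0.00552), against 15.5 and 7.01 CPM dorsally. Meis1, which was named for its change between levels, was higher in excitatory neurons by 3.70 dorsally, 2.005 at the mid level and 0.65 ventrally.

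Neuropeptides, through which subsets of dorsal horn neurons signal itch and pain, could be tested dorsally for 13 of 22 precursor genes, of which 10 were higher in excitatory and 3 in inhibitory neurons. Several passed the filter on low counts only through the class where they were high, so these numbers describe the genes tested and are no measure of the list. Of all genes tested, 28.9% were called dorsally, 9.48% at the mid level and 9.78% ventrally. At the mid level the single gene tested, Penk, was not called (limma FDR = 0.885), and ventrally 1 of 2 was, Penk again (0.97, higher in 5 of 6 mice). Nmu, encoding neuromedin U, had 24.2, 52.2 and 63.99 CPM in DE and 0.560, 1.30 and 5.71 CPM in DI (4.88, SE 0.35, FDR = 6.62e-11). The female of pool B had the lowest excitatory value, which still exceeded every inhibitory one.

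The tachykinin gene Tac2 (neurokinin B) was 38.2 against 2.90 CPM on average (3.83). Adcyap1 (PACAP), Grp (gastrin-releasing peptide, an itch transmitter), Nts (neurotensin), Cck (cholecystokinin) and Sst (somatostatin) differed by 2.94, 2.82, 2.80, 2.73 and 2.67, and for Nts the SE was 0.57. Penk, the enkephalin precursor, and Tac1, the substance P precursor, were present in both classes, at 36.4 against 23.0 and 29.7 against 19.1 CPM (0.62 and 0.59). Penk, Tac1, Calca, Pdyn, Oprd1, Oprm1, Gabra5, Gabrb1 and Uncx are named after their values were seen.

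Npy (neuropeptide Y) marked the inhibitory class, with 10.1, 16.4 and 29.4 CPM in DI and 0.531, 2.06 and 2.51 CPM in DE (−3.32, SE 0.24, FDR = 6.11e-13). All inhibitory values exceeded all excitatory ones. Pnoc (nociceptin) had 20.6 against 1.98 CPM (−3.47) and Pdyn (dynorphin) 6.11 against 2.80 CPM (−1.10).

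**Figure D3:**
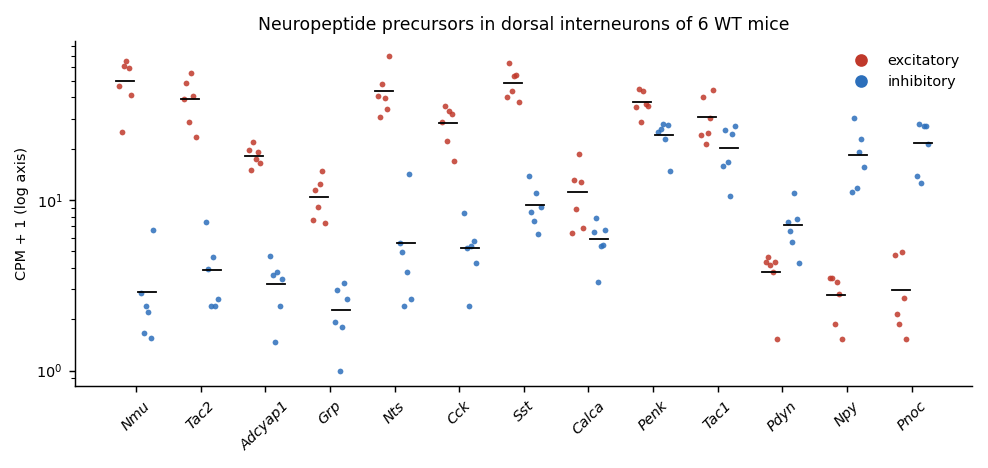
CPM + 1, on a log axis, of the 13 neuropeptide precursors tested in dorsal interneurons, ordered by fold change, with 1 point per WT mouse for excitatory (red) and inhibitory (blue) neurons and a bar at the mean. Nmu to Sst are high in excitatory neurons and Npy and Pnoc in inhibitory ones, whereas Penk and Tac1 lie close together.

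Within a class, the reference populations shared these peptides unequally. DE_5 held 11.6% of DE nuclei but 89.6% of the Nmu and 73.9% of the Tac2 UMIs of DE. DE_6, with 4.44% of the nuclei, held 71.4% of the Nts UMIs, and DE_7, with 5.59%, held 37.4% of those of Cck. Among inhibitory neurons DI_4 (9.64% of nuclei) held 46.8% of the Npy UMIs and DI_2 (8.75%) held 78.2% of those of Pdyn. Tac1 of the inhibitory class was concentrated in DI_1, with 77.8% of the UMIs in 13.6% of the nuclei. The populations were assigned from the same RNA, so these shares are descriptions.

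Receptors of the peptides were tested for 18 of 25 genes dorsally, 7 of them higher in excitatory and 3 in inhibitory neurons, and as for the precursors these numbers are no measure of the list, since members such as Grpr passed the filter through 1 class. The called shares were 55.6% dorsally, 33.3% at the mid level and 9.09% ventrally, beside 28.9%, 9.48% and 9.78% of all genes tested. The ventral share was thus near that of all genes. Grpr, the receptor of gastrin-releasing peptide, had 310 UMIs in DE and 6 in DI (4.59). Tacr1, the substance P receptor of projection and other excitatory neurons, had 44.5 against 7.52 CPM (2.54), and Npy1r, through which neuropeptide Y inhibits, 19.6 against 3.44 CPM (2.45). Npy was higher in the inhibitory class and its receptor Npy1r in the excitatory class. The reverse held for somatostatin, since Sst was higher in DE and Sstr2 in DI (15.9 against 4.47 CPM, −1.89). Nmur2, the neuromedin U receptor, was higher in DE like its ligand (36.3 against 13.2 CPM, 1.40). At the mid level 1 of 3 tested receptors was called (Tacr1, 0.94), and ventrally 1 of 11, the δ-opioid receptor gene Oprd1 (−0.46), which dorsally was higher in excitatory neurons (0.64, a call lost without the male of pool B, FDR = 0.129). The μ-opioid receptor gene Oprm1 was higher in DI in all mice without overlap (168 against 107 CPM, −0.66), while it was not called at the other levels (−0.40 and −0.06).

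Receptors for the fast transmitters also differed between the classes. Of 17 tested subunits of GABA-A, GABA-B and glycine receptors, 11 were higher in excitatory and 2 in inhibitory neurons dorsally, 5 and 2 at the mid level, and 8 and 0 ventrally. The called shares were 76.5%, 41.2% and 47.1%, beside 28.9%, 9.48% and 9.78% of all genes tested. Their median log2 fold change was 0.41, 0.13 and 0.19, beside −0.02, 0.03 and −0.02 for all genes tested. Gabrg1 was higher in excitatory neurons at the mid and ventral levels (1.26 and 0.91). Subunits higher in the excitatory class dorsally included Gabra5 (0.89) and Gabrb1, a β subunit with 986 against 559 CPM and no overlap (0.80). Gabra5, an α subunit of extrasynaptic receptors, was also higher at the mid level (0.80) but not called ventrally (0.02). Glrb, the common β subunit of glycine receptors, and Gabbr2 were called at no level, with log2 fold changes of −0.04 to 0.15 and 0.00 to 0.05.

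Among 16 tested ionotropic glutamate receptor subunits, 6 were higher in excitatory and 9 in inhibitory neurons dorsally, 4 and 4 at the mid level, and 5 and 3 ventrally. The called shares were 93.8%, 50% and 50%, beside 28.9%, 9.48% and 9.78% of all genes tested. Grik2, a kainate receptor subunit (GluK2), had 3106, 3659 and 4289 CPM in dorsal inhibitory neurons and 981, 1122 and 1411 CPM in excitatory ones (−1.71, SE 0.04, FDR = 2.03e-26). It was also higher in MI (−1.24), but ventrally VI had 1382, 1789 and 2214 CPM and VE 1670, 1865 and 2094 CPM. The ventral classes overlapped and no difference was called (0.08, FDR = 0.297). Grik3 was higher in inhibitory neurons by −2.52 dorsally. The NMDA receptor subunit Grin3a was higher in excitatory neurons dorsally and at the mid level (1.78 and 0.47), and Grid1, a delta receptor that binds cerebellins, dorsally (1255 against 288 CPM, 2.17), where Cbln2 and Cbln4 were higher in the same class (2.12 and 1.68).

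All 6 tested metabotropic glutamate receptors were called dorsally, 1 higher in excitatory neurons and 5 in inhibitory neurons, where 28.9% of all genes tested were called. Ventrally 3 of 6 were called, beside 9.78% of all genes, and all 3 were higher in excitatory neurons (Grm3, Grm5 and Grm7). Grm3 differed by −1.90 dorsally and by 0.30 ventrally, where the difference was −0.061 over nuclei with a mapping score, the deposited score of the label transfer, of at least 0.5 and was not called without the female of pool B (0.25, limma FDR = 0.101). Grm5 and Grm7 changed sign between levels as well: they were lower in excitatory neurons dorsally (−0.48 and −0.32) and at the mid level (−0.50 and −0.38) and higher ventrally (0.33 and 0.46). The differences between dorsal and ventral were −0.81 and −0.78 (FDR = 2.11e-13 and 2.49e-14).

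Other lists of the synapse and of excitability are set beside the 28.9% of all genes called dorsally and the 9.78% called ventrally. Of the synaptic adhesion and organiser list, 17 were higher in excitatory and 15 in inhibitory neurons of 48 tested dorsally, and of the potassium channel subunits 14 and 13 of the 44 that passed the filter among 80, to which the same limit applies. Of the vesicle release genes, 4 were higher in excitatory and 14 in inhibitory neurons of 26 tested dorsally, with a median of −0.18. Ventrally the numbers were 3 and 6 of 25, with a median of −0.01 beside −0.02 for all genes tested. Its members Cplx2, Unc13c and Sv2c differed by −1.18, −1.22 and −1.32 dorsally. Excitatory postsynaptic scaffolds were called in 8 and 6 of 18 dorsally (77.8%). Inhibitory scaffolds were called in 2 and 0 of 6 (33.3%), near the share of all genes. Sodium, calcium and HCN channels were called in 8 and 6 of 28 (50%). Of the acetylcholine, monoamine and nitric oxide genes 1 of 3 was called (33.3%), Nos1, which is also near that share.

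Dorsal excitatory neurons had more Ptprd, an organiser of presynaptic sites (1.23), Elfn1 (1.77) and the potassium channel genes Kcng2 (30.3 against 2.37 CPM, 3.76), Kcnk13 (1.66) and Kcnn3 (1.53). Dorsal inhibitory neurons had more Cntnap4 (−1.77), Clstn2 (−1.23), Kcnb2 (−1.22) and Cacna1i, a T-type calcium channel (−1.31). Common dorsal horn markers also divided between the classes: of 4 calcium-binding proteins and kinases 3 were higher in DE and 1 in DI, where 28.9% of all genes tested were called. Calb1 (calbindin) was 71.3 against 7.03 CPM (3.34), and Nos1, the neuronal nitric oxide synthase, 8.46 against 25.3 CPM (−1.53). Some members of these lists differed little: the P/Q-type channel gene Cacna1a (−0.05, 0.16 and 0.10), Scn2a (0.04, −0.09 and −0.02) and Syn1 (−0.11, 0.03 and −0.02) were called at no level.

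**Figure D4:**
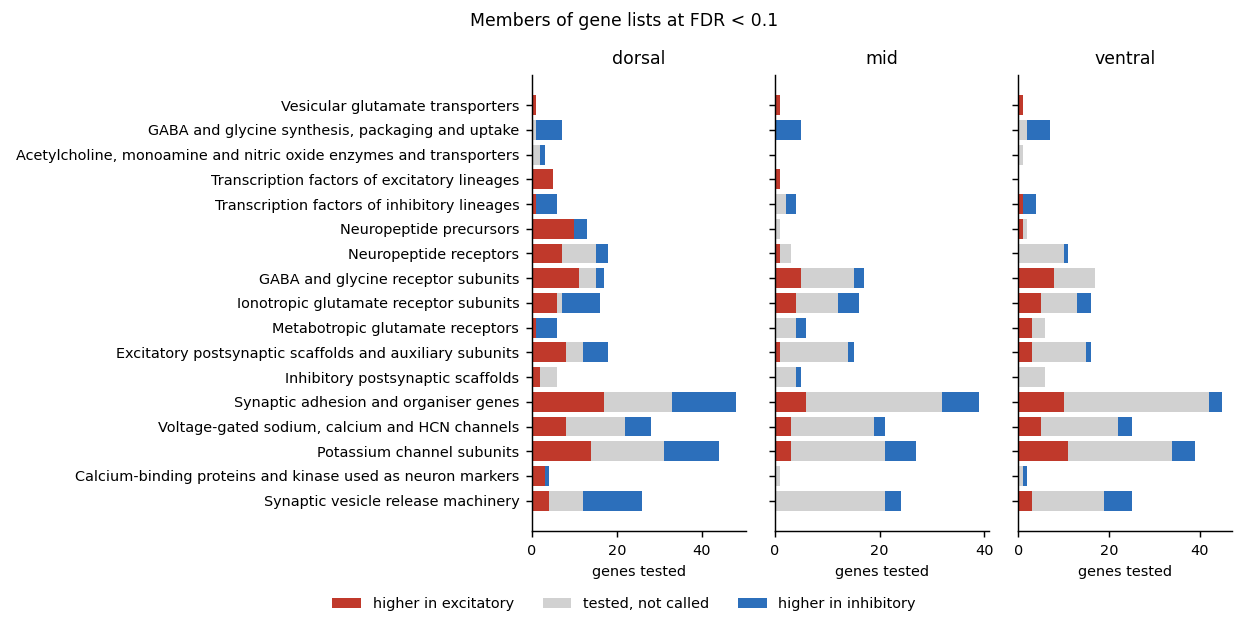
Number of tested members of each gene list that were higher in excitatory neurons (red), higher in inhibitory neurons (blue) or not called (grey) at FDR < 0.1, by level. Dorsal panels have the most called members, and the neuropeptide list is nearly empty at the mid and ventral levels (1 and 2 genes tested). Of all genes tested, 28.9%, 9.48% and 9.78% were called at the dorsal, mid and ventral levels.

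The class difference itself was compared between levels in a single fit over all sub-types of the 6 mice. Mid and ventral nuclei had lower mapping scores than dorsal ones, and the part of this in the level differences was not tested. The class difference differed between dorsal and ventral for 1772 of 11168 genes (15.9%), between dorsal and mid for 1169 (10.5%) and between mid and ventral for 874 (7.83%). Chrm3, the M3 muscarinic receptor, gave the smallest p for dorsal against mid among the genes lower in that contrast. DI had 1081, 1239 and 1851 CPM and DE 189, 247 and 339 CPM (−2.44, SE 0.09), whereas MI had 347, 409 and 419 CPM and ME 695, 869 and 940 CPM (1.08, SE 0.08). The classes did not overlap at either level and stood in opposite order, and the difference of differences was −3.49 (SE 0.11, FDR = 3.39e-21). Ventrally Chrm3 was not called (−0.11).

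Reln, the extracellular glycoprotein reelin, was higher in DE, with 163, 197 and 249 CPM against 12.7, 20.1 and 32.6 CPM in DI (3.38, FDR = 3.86e-19). It was also higher in VE (140 against 33.3 CPM, 1.92). In the mid cord ME had 79.3, 145 and 216 CPM and MI 88.8, 206 and 259 CPM. The mid classes overlapped broadly and no difference was called (−0.23, FDR = 0.703). MI had a mean of 190 CPM, where DI had 20.5 and VI 33.3 CPM.

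Several genes were called dorsally but not ventrally, and the contrast between these levels was called for each. The adhesion gene Dscam differed by 2.18, 0.59 and 0.05 at the 3 levels (dorsal minus ventral 2.13, FDR = 2.06e-18), its paralogue Dscaml1 by −2.75, −1.39 and 0.20 (−2.95, FDR = 1.67e-16) and Grid1 by 2.17, 0.28 and 0.03 (2.13, FDR = 2.64e-22). Dscam and Dscaml1 stood on opposite sides in dorsal neurons and neither was called ventrally. Arpp21, a regulator of calmodulin signalling, was higher in excitatory neurons at the mid level (1174 against 352 CPM, 1.71) and ventrally (303 against 233 CPM, 0.38, FDR = 3.32e-05). Dorsally Arpp21 differed by 0.14, a call lost without the female of pool B (FDR = 0.277) or the male of pool A or B (FDR = 0.171 for both). Hmga2, a chromatin protein of immature cells, had 356 UMIs in MI and 2 in ME (−4.47).

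Some genes were called in opposite directions at 2 levels with a log2 fold change of at least 1 at both, 4 for dorsal and ventral, 10 for dorsal and mid and 3 for mid and ventral. Among them, and chosen after its values were seen, Erbb4, the neuregulin receptor, had 1641 CPM in DE and 294 in DI (2.55), but 757 CPM in VE and 1674 in VI (−1.13). Gpc5, a glypican chosen in the same way, had 561 and 4028 CPM dorsally (−2.84) and 1137 and 526 CPM ventrally (1.09).

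**Figure D5:**
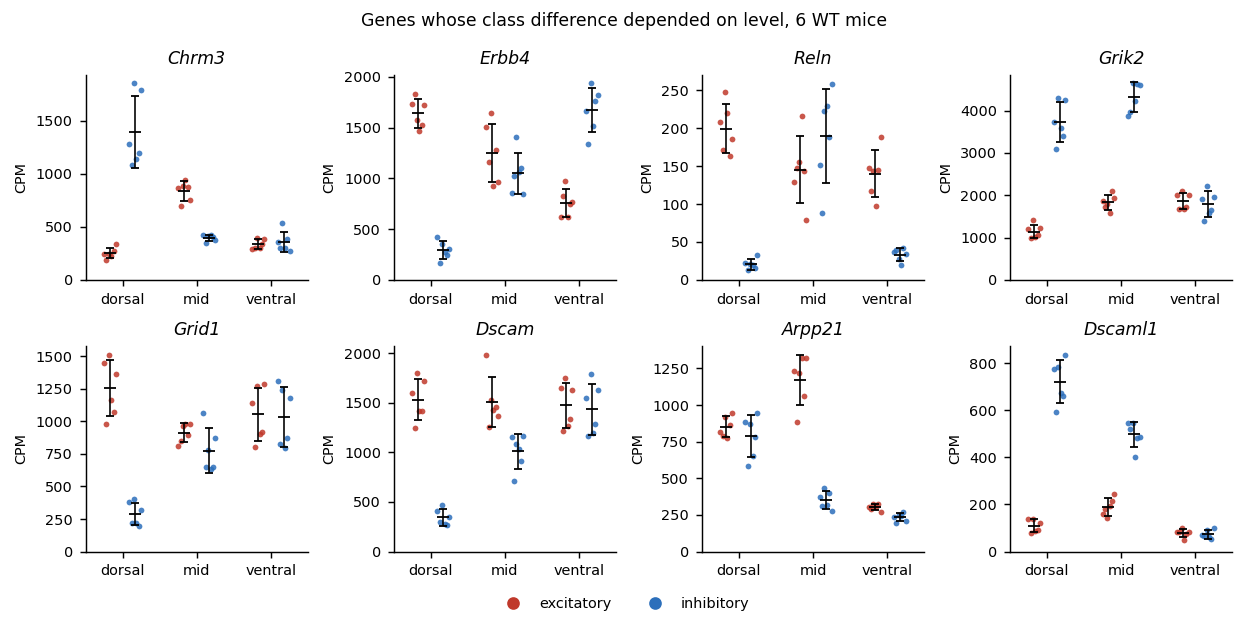
CPM of 8 genes whose class difference depended on level, in excitatory (red) and inhibitory (blue) neurons, with 1 point per WT mouse and the mean ± SD in black. Chrm3 reverses between the dorsal and mid levels and Erbb4 between the dorsal and ventral levels, Reln loses its class difference at the mid level (145 and 190 CPM), and Grik2, Grid1, Dscam and Dscaml1 are separated dorsally but not ventrally.

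Depth and mitochondrial content per nucleus were not genes of the label mapping, but whether depth affected the labelling was not tested. They and the number of nuclei per class, which is a count of the labels, were compared over the 6 mice. An exact sign-flip permutation test was used, two-sided and adjusted over 12 tests. Its smallest p is 0.03125 and its smallest adjusted p 0.0625. Dorsal excitatory nuclei held fewer UMIs than inhibitory ones, with medians over mice of 10146 and 12120 (log2 ratio −0.20 ± 0.07, SD, n = 6, permutation p = 0.03125, adjusted 0.0625), lower in 6 of 6 mice. Genes per nucleus were fewer too, dorsally (3199 against 3531) and ventrally (4699 against 5048), in 6 of 6 mice each (adjusted permutation p = 0.0625). Ventral UMIs per nucleus did not pass (log2 ratio −0.19, higher in excitatory nuclei in 2 of 6 mice, adjusted permutation p = 0.188). At the mid level no difference in UMIs or genes passed (adjusted permutation p = 0.333 and 0.188), and no difference in the percent of mitochondrial UMIs was found at any level (0.75, 0.813 and 0.375). Excitatory nuclei outnumbered inhibitory ones 2.01-fold dorsally (1.59 to 2.53 over mice) and 2.88-fold ventrally (2.45 to 3.45), while at the mid level the ratio was 0.340 (0.231 to 0.450). These are nuclei recovered and labelled, and a share of neurons in the cord cannot be told apart from a share of nuclei that passed the filters.

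Markers of other cells were measured in the same sums. The summed oligodendrocyte precursor list (Tnr, Vcan and Cspg4) was higher in the excitatory class in 6 of 6 mice at the mid level, with 541 to 895 CPM against 282 to 444 CPM, and ventrally, with 545 to 680 against 438 to 572 CPM, where the precursors themselves had 3396 CPM. Most of these sums was Tnr, with means of 682 against 362 CPM at the mid level and 600 against 489 CPM ventrally, each higher in 6 of 6 mice. Vcan was higher in excitatory neurons in 5 of 6 mice at the mid level (26.1 against 10.9 CPM) and in 4 of 6 ventrally (18.0 against 13.8 CPM). Cspg4 was higher in 1 of 6 at the mid level (0.675 against 0.832 CPM) and in 4 of 6 ventrally (0.563 against 0.396 CPM). The oligodendrocyte list was at 222 to 376 CPM in DE and 188 to 342 CPM in DI, at 121 to 401 CPM in ME and 144 to 296 CPM in MI, and at 101 to 195 CPM in VE and 100 to 114 CPM in VI, against 5016 CPM in oligodendrocytes. It was higher in the excitatory class in 5 of 6 mice dorsally and ventrally and in 3 of 6 at the mid level. The summed motor neuron list was lower in DE than in DI in 6 of 6 mice (25.8 to 45.04 against 46.0 to 65.8 CPM), through Slit3 (means of 29.3 against 51.9 CPM). At the mid level it was higher in the excitatory class in 5 of 6 mice (79.2 to 242 against 48.6 to 154 CPM), again mostly Slit3 (149 against 75.8 CPM), and ventrally in 4 of 6. In dorsal neurons its other members Prph (2.04 against 1.78 CPM) and Chat (1.18 against 0.628 CPM) were low in both classes and higher in DE in 3 and 4 of 6 mice. Lists of astrocyte, microglia, endothelial and Schwann cell markers had at most 35.4, 20.8, 24.3 and 8.21 CPM in any mouse and sub-type, where those cell types themselves had 1023, 63.8, 6487 and 118 CPM. The part of these markers in the class differences was not tested.

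The difference between females and males in the class difference was called for 4 genes dorsally (0.0347% of those tested), 2 ventrally (0.0194%) and 0 at the mid level, where limma gave 209 genes at an unadjusted p under 0.05 and edgeR called 0, with 192 at that p. Ventral Zmat4, a zinc-finger gene, was the clearest: the log2 ratio of excitatory over inhibitory was 0.43, 0.24 and 0.54 in the 3 females and −0.47, −0.58 and −0.53 in the 3 males (difference 0.91, SE 0.11, FDR = 5.56e-05). The sexes fell on opposite sides of 0.

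In SOD1G93A mice, whose 2533 nuclei of the same sub-types the rule did not use, the larger class differences had mostly the same sign under the same labelling. Of 641 genes with a log2 fold change of at least 1 in WT dorsal neurons, 524 could be tested in SOD1G93A mice, all with the same sign, and 512 were called there too. The mid numbers were 136, 89, 89 and 82. Ventrally 60 of 86 were tested, 56 had the same sign and 29 were also called. SOD1G93A mice had fewer nuclei, with 7 to 55 VI and 5 to 23 ME nuclei per mouse. Within them 153 of 8908 ventral genes were called, beside 1009 of 10318 in WT mice. The part of these smaller libraries in the recurrence and in the genotype calls below was not tested. Over all genes tested in both genotypes the sign was the same for 74.7%, 65.2% and 61.0%. The class by genotype difference was called for 0 genes dorsally and 0 at the mid level by limma (582 and 194 at an unadjusted p under 0.05) and by edgeR (563 and 195). Ventrally 5 genes were called (0.0545%), among them Cacna2d3, whose class difference was −1.11 in WT and −0.74 in SOD1G93A mice (difference 0.39, FDR = 0.0612). The Cacna2d3 call was lost when any of 8 of the 12 mice was left out, with limma FDR from 0.114 to 0.280.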

How the data were processed

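Raw UMI counts per gene and nucleus were deposited by the authors, who had aligned reads to an mm10 pre-mRNA reference (Cell Ranger 3.1, STAR 2.5.1b), assigned hashtags and cell types (Seurat 4.0.3, R 4.0.3) and removed mitochondrial genes, nuclei with few genes and hashtag doublets. The deposited percent of mitochondrial UMIs and mapping score were the authors' values per nucleus. Their integrated residuals were not used. No further doublet caller was run.

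Counts were summed per mouse and sub-type. Genes were kept by filterByExpr with a minimum count of 10, scaled with TMMwsp (edgeR 4.0.16) and fitted with limma 3.58.1 (voom, robust empirical Bayes) in R 4.3.3, with the mouse as a block because both classes came from the same animal. P-values were adjusted by Benjamini-Hochberg over all genes tested at a level. edgeR's quasi-likelihood test and DESeq2 1.42.0 were alternatives. CPM of genes are on the scaled UMIs of the genes kept at a level. CPM of marker lists for other cells, of reference populations and of glia are on all UMIs, unscaled. The fits were tested on simulated data. Other measures and figures used Python 3.11.15 with scipy 1.17.1 and matplotlib 3.10.9. The level contrasts and the sex and genotype differences were fitted with the same tools.

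The members and gene lists were chosen with earlier results of these data known. Named genes were all transmitter genes, up to 8 called members per other list with a log2 fold change of at least 1 and 2 abundant members not called, and the genes of smallest p per level, level contrast and interaction. Also named were the 10 per direction with the largest smallest fold change among the genes shared by all levels. Some genes under these rules are not reported here. Penk, Tac1, Pdyn, Calca, Oprd1, Oprm1, Erbb4, Gpc5, Gabra5, Gabrb1 and Uncx were named after their values were seen. Promoter windows came from RefSeq on GRCm38.p6, and all 5 genes looked up were matched.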

Additional observations from a re-analysis of the deposited data

Results flagged for a closer look

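Of 82 groups of 6 mice (a gene or measure in 1 class and level, or its ratio), 7 had a mouse far from the others, where chance gives about 1 in 20. The male of pool C accounted for 4. Its log2 ratio of genes per nucleus at the mid level was 0.239 beside a median of 0.0709, Gad2 in its ME nuclei was 43.2 CPM beside 10.6 CPM, Nrxn3 in its MI nuclei 13204 CPM beside 11081 CPM, and Nmu in its DI nuclei 5.71 CPM beside 1.30 CPM. The male of pool B had 181 CPM of Cacna2d1 in VI nuclei (median 89.7 CPM), the female of pool C had 6272 CPM of Nrxn3 in VE nuclei (4638 CPM), and the female of pool A had 11.1 CPM of Bdnf in DI nuclei (2.26 CPM).

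The class difference differed between the sexes for 6 genes. Zmat4 in ventral neurons (0.91 higher in females, FDR = 5.56e-05) stayed called without any 1 mouse. Dorsally Adarb2, an RNA-editing enzyme homologue, had a log2 ratio of 0.16, 0.43 and 0.22 in females and 0.94, 0.86 and 0.60 in males (−0.53, limma FDR = 0.0284), Nell1 differed by −0.96 (0.0393), Dscam by −0.41 (0.0931) and the unnamed transcript Gm45321 by 1.35 (0.0846). Ventral Dach1 differed by 0.63 (0.0217). Each of these 5 calls was lost without at least 2 of the 6 mice in turn.

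Between genotypes the ventral class difference differed for 5 genes, of which 4 are given here, all at limma FDR = 0.0612: Galnt18 (−0.88), Pid1 (−0.56), Daam2 (−1.91) and Cacna2d3 (0.39). The calls of Galnt18, Pid1 and Daam2 were each lost without any 1 of 7 of the 12 mice, and that of Cacna2d3 without any 1 of 8.

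Between levels, the class difference differed for 1772 genes (dorsal against ventral), 1169 (dorsal against mid) and 874 (mid against ventral).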

How the results depend on the processing

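The number of genes called depended on the settings, as given below. Named genes were mostly chosen for a small p or a large difference, so their stability cannot be compared with that of the counts. A gene below the filter in a setting left no value there. Of 490 called values of named genes, 368 stayed called in every setting that tested them, 122 were lost in at least 1, and 2 changed sign. These were Pou4f1 for dorsal minus ventral by edgeR (−0.53) and Grm3 ventrally with a mapping score of at least 0.5 (−0.061). The mapping score minimum and the drawing of nuclei to the mid number were chosen after seeing the data.

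Pairing by mouse came from the design. With no replicate block, 2084 genes were called dorsally and 246 ventrally, and, among values given above, the calls of Tac1 and Arpp21 (dorsal), Lrtm1 (mid) and Abat, Penk, Oprd1, Grm3 and Grm5 (ventral) were lost. With pool and sex in place of the mouse the ventral count was 477, and with means over nuclei it was 477 too. DESeq2 called 2173, 315 and 403 genes at the dorsal, mid and ventral levels, and 1 fit of all 36 libraries 2166, 830 and 391. No filter on low counts gave 5020, 7375 and 5192 calls, and with a log2 fold change of at least 1 it gave 718 (excitatory) and 1708 (inhibitory) dorsally, 5903 and 295 at the mid level and 224 and 3719 ventrally. A minimum count of 30 left 182 large inhibitory calls dorsally, 32 excitatory and 39 inhibitory at the mid level and 26 and 14 ventrally, and it gave 0 sex and 1 genotype call dorsally. Thinned UMIs left 38 large excitatory calls ventrally. A mapping score of at least 0.5 left 289 ventral calls. Nuclei drawn to at most the mid number, which left all VI nuclei in, gave 814 dorsal calls (175 and 137 large) and 227 ventral ones (17 and 11 large). edgeR called 505 genes for mid against ventral, 2 for sex dorsally and 12 for genotype ventrally. With means over nuclei the mid mitochondrial difference was 0.0241, and that of genes per nucleus ventrally was −0.103 and no longer passed. The cause was not tested for any of these.

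Leaving out 1 mouse at a time gave 556 to 926 ventral calls, the lowest without the female of pool B. Sex calls were 0 to 10 dorsally, 0 to 1 at the mid level and 1 to 15 ventrally, and genotype calls 0 to 3, 0 to 4 and 0 to 9. Log2 ratios were −0.2204 to −0.179 for dorsal UMIs, −0.127 to −0.112 and −0.112 to −0.0748 for dorsal and ventral genes, 0.917 to 1.05, −1.68 to −1.49 and 1.46 to 1.56 for nuclei at the 3 levels. The mitochondrial difference was −0.0133 to 0.00111 dorsally and −0.0421 to 0.00848 at the mid level. With 5 mice the smallest permutation p is 0.0625, which gave an adjusted p of 0.125, so the loss of these calls says nothing about their stability. The mid level rests on few nuclei, and its low genes could not be tested.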
